A study of Mus musculus with 9 samples.

Results

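The rare CX3CR1-GFP macrophages of the mouse peritoneal wall were compared with all other phagocytes sorted from the same tissue. The 3 CX3CR1-GFP libraries were set against 6 others, 3 of double-negative and 3 of CCR2-RFP phagocytes, out of 9 in all. The genes described are those whose 3 CX3CR1-GFP values all lay above, or all below, the 6 other values. Of 28764 symbols listed, 10136 reached 1 TPM in at least 3 libraries and were tested, and of these 274 lay above (2.70%) and 572 below (5.64%). TPM is an abundance of transcripts corrected for transcript length and scaled to a common total.

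All mice carried 1 reporter allele at each locus, Cx3cr1gfp/+ and Ccr2rfp/+, from an F1 cross, so every population had 1 intact copy of each receptor gene. All were given 50 µg of labelled dextran a day earlier, perfused, and the wall tissue was digested for 20 minutes. Neutrophils were gated out by Ly6G and the CD11b+ cells were divided by MHC class II and the reporters. The CX3CR1-GFP cells were MHC II+, GFP+ and RFP-, and made up 0.5 to 1.5% of the gated cells. Double-negative cells, which had taken up dextran and lacked MHC II and both reporters, made up 85 to 90%. CCR2-RFP cells were MHC II+ and RFP+ and made up 10 to 15%; the submitters call the first 2 sessile resident macrophages and the last migratory tissue monocytes. The study title asks about P2 nucleotide receptors in these populations. Ages are not stated in the labels.

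CX3CR1 is the receptor for fractalkine, a chemokine that also exists as a membrane-bound adhesion molecule. It is known from microglia, from patrolling monocytes and from macrophages that line nerves, vessels and body cavities. CCR2 is the receptor that draws monocytes out of the bone marrow and into tissue. MHC II, which was also part of the gate, presents antigen to helper T cells.

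Cx3cr1 itself read 6.51, 16.4 and 4.13 TPM in the CX3CR1-GFP libraries of sorts 1, 2A and 2B and was listed at 0 in all 6 others. Ccr2 read 4.29, 5.03 and 6.68 TPM in CX3CR1-GFP, 1.65 to 4.62 in double-negative and 95.4 to 115 in CCR2-RFP. The transcripts thus followed the column headings. For the 6 reporter-positive samples the description field names the other reporter, whereas title, source name and cell type carry the population of the heading, which was used.

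The macrophage label was checked against defining genes. Adgre1 (F4/80) read 72.3 to 78.9 TPM in CX3CR1-GFP, Csf1r (the CSF-1 receptor) 198 to 212, Mertk 14.1 to 16.1 and Fcgr1 (CD64) 10.5 to 14.7. Of the dendritic cell genes, Flt3 reached at most 1.08 TPM, and Xcr1, Clec9a and Ccr7 at most 0.0826, 0.0284 and 0.0666, while Zbtb46 read 2.62, 1.26 and 2.57 TPM, against 1.57 to 2.50 in CCR2-RFP and 1.95 to 2.98 in double-negative. The MHC II part of the gate was visible in Cd74, the invariant chain: 917, 1550 and 1114 TPM in CX3CR1-GFP, 137 to 209 in double-negative and 2826 to 3448 in CCR2-RFP. H2-Aa, H2-Ab1 and H2-Eb1 had the same order, CX3CR1-GFP between the others, so none of the 4 was without overlap.

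The values are TPM without counts, so depth is unknown, and 3 libraries per population set the precision. Correlation of log2(TPM + 1) was 0.904 to 0.938 within CX3CR1-GFP, 0.879 to 0.937 with double-negative and 0.794 to 0.864 with CCR2-RFP libraries. The median SD over genes was 0.30 on that scale in CX3CR1-GFP, 0.22 in double-negative and 0.25 in CCR2-RFP. The p-values measure the spread between these sorted samples. In bulk RNA, fewer cells of a type and less RNA per cell cannot be told apart.

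The comparison asked which genes set the CX3CR1-GFP cells apart, on log2(TPM + 1), with limma and Benjamini-Hochberg adjustment over all 10136 genes (called: adjusted p under 0.05). Against the mean of both other populations, 377 genes were called higher (3.72%) and 936 lower (9.23%). This contrast alone says little about distinctness, because CX3CR1-GFP was nearer to double-negative for 67.97% of genes and lay between the others for 37.73%. A call against each other population in the same direction was made for 52 genes higher (0.513%) and 60 lower (0.592%).

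Among the 274 genes above, 52 were called against each population, 142 against CCR2-RFP only, 5 against double-negative only and 75 against neither. Among the 572 genes below, the counts were 59, 372, 10 and 131. The ordering chose these genes, so the counts are a description. Of the 274 above, 61 reached 1 TPM in fewer than 3 of the 6 others, so they could be tested only because they were high in CX3CR1-GFP, and 20 of the 52 called against each are among them. For 27 of the 61, no other library reached 1 TPM. Of the 572 below, 53 passed through the other libraries alone, 3 of them called against each. Separation from the nearer population was mostly small, with a median log2 difference of 0.60 above and -0.50 below, and at least 2-fold for 56 and 48 genes. The sort 2A library was the highest of the 3 for 50.7% of the genes above and the lowest for 46.5% of those below. With the 6 others treated as 1 group, so that the distance between them counts as spread, 30 genes were called higher and 27 lower. Leaving out the libraries of 1 sort gave 68 (sort 1), 190 (2A) and 101 (2B) calls higher and 112, 416 and 216 lower, and against each population 1, 10 and 4 higher and 6, 31 and 12 lower.

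The scaling of TPM bears on the split between directions. Listed values summed to 278579 to 301604 per CX3CR1-GFP library and to 324050 to 382828 in the others (exact permutation test, two-sided, p = 0.0238, the smallest possible with 84 assignments; 0.214 adjusted over 18 per-library values). Siglece, the most abundant listed gene, held 61107 to 87908 TPM in CX3CR1-GFP and 102783 to 123879 in the others, with the same p-values. That 1 symbol was 21.92 to 29.15% of the listed sum in CX3CR1-GFP and 28.98 to 34.69% in the others. Since the listed sums differ between libraries, the listed symbols do not make up the whole of a common total. Of the calls, 28.7% were higher as deposited, 42.5% after median-of-ratios scaling, 46.8% after quantile normalization and 56.8% after rescaling without mitochondrial, ribosomal, Rn18s and Siglece values. That last scaling moved the median log2 difference of all genes from -0.07 to 0.08, and no call switched direction in any setting.

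**Figure D1:**
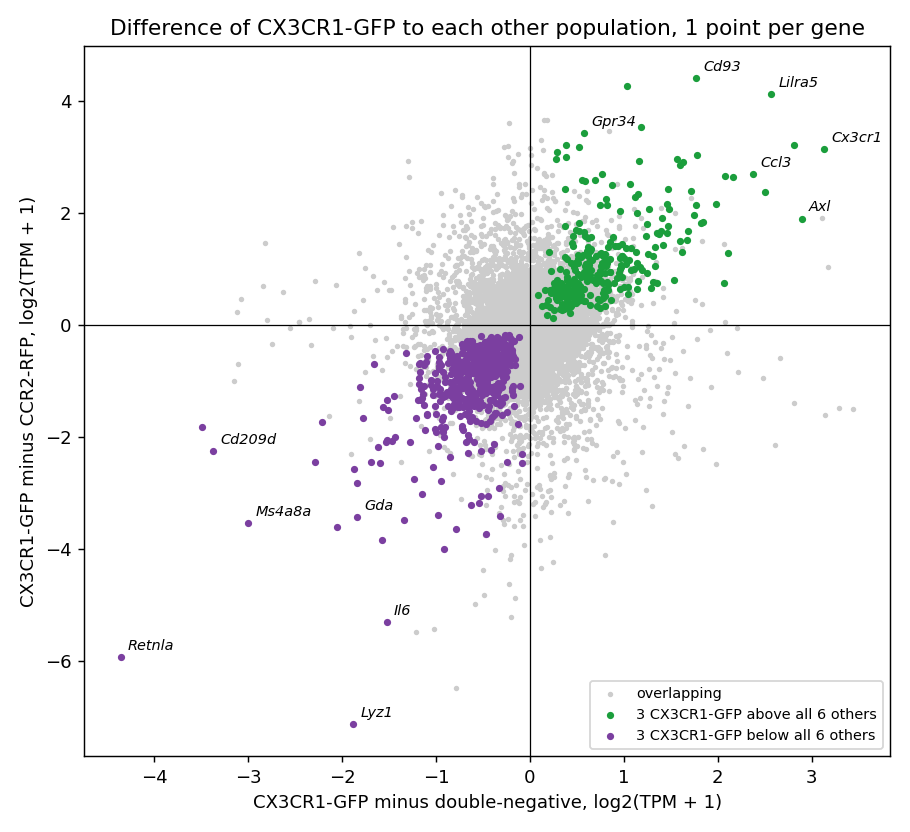
Each point is 1 of the 10136 genes: the x axis is the log2(TPM + 1) difference of CX3CR1-GFP to double-negative, the y axis that to CCR2-RFP. The 274 genes above (green) and 572 below (purple) lie in 2 opposite corners by construction; Retnla, at -4.35 and -5.94, is furthest from its nearer population.

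Among called genes without overlap, at 10 TPM or more and with predicted and ribosomal genes left out, the furthest from the nearer population were Lilra5 and Ccl3 above, and Retnla and Ms4a8a below. Cx3cr1, at a mean of 9.02 TPM, is under that floor. The RefSeq promoter windows of these 4 genes (GRCm38.p6, 250 bases before to 50 after the start) are shown because they lie at the extremes of the ranking. Capitals mark matches on either strand to short forms of motifs known from macrophage promoters: PU.1 GAGGAAGT, AP-1 TGANTCA, C/EBP TTNNGNAA, NF-kB GGGANTTCC and the TATA box TATAAA.
Lilra5 promoter, chr7:4237504-4237803, + strand: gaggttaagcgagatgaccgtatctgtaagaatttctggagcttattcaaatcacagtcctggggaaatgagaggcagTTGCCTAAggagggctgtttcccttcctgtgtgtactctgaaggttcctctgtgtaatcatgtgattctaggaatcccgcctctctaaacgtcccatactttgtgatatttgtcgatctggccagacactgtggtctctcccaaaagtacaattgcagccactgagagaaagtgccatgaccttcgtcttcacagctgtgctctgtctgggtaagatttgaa
Ccl3 promoter, chr11:83649329-83649628, - strand: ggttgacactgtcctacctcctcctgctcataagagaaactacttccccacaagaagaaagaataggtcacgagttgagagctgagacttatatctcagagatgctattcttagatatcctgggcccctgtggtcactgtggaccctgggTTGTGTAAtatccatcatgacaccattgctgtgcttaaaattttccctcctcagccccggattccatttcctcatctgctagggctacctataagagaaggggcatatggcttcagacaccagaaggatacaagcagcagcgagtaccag
Retnla promoter, chr16:48842359-48842658, + strand: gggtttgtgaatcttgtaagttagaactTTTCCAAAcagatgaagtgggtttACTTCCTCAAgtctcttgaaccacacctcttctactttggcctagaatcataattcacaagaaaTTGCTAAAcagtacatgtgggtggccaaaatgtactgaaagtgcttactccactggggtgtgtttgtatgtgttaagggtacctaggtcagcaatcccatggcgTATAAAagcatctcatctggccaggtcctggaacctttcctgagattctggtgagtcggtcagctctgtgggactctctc
Ms4a8a promoter, chr19:11081054-11081353, - strand: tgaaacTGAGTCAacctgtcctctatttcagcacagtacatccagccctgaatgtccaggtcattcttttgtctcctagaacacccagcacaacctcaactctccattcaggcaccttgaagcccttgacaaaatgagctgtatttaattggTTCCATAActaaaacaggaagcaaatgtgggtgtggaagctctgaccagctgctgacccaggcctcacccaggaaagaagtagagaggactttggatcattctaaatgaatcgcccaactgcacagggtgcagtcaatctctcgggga
The Lilra5 window held 1 C/EBP match, beginning 172 bases before the start, and the Ccl3 window 1 at 100 bases before. Retnla had matches for PU.1 at -198, C/EBP at -222, -196 and -134, and the TATA box at -30; the PU.1 match overlaps the C/EBP match at -196. Ms4a8a had AP-1 at -244 and C/EBP at -98. The loose C/EBP form occurs in 40.7% of all 32851 RefSeq windows, AP-1 in 7.81%, the TATA box in 13.6%, NF-kB in 1.68% and PU.1 in 3.20%. Among genes with a window, PU.1 letters were in 15 of 192 above (7.81%), 20 of 445 below (4.49%) and 323 of 7609 kept (4.24%). C/EBP letters were in 40.6% above, 35.7% below and 36.6% of those kept. A match is a run of letters, not a measured site.

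Lilra5, an activating receptor of the leukocyte immunoglobulin-like family, read 14.9, 22.3 and 15.0 TPM in CX3CR1-GFP, 2.31, 2.17 and 1.69 in double-negative, and 0.111, 0 and 0.0304 in CCR2-RFP. The CX3CR1-GFP libraries thus stood several fold above the nearest other. The log2 difference was 2.57 to double-negative (adjusted p = 0.00034) and 4.11 to CCR2-RFP (2.57e-06), and 3.34 ± 0.18 (SE) to their mean (1.36e-05). It was called in all 23 alternative settings. The gene is protein-coding and lies at chr7:4237754-4243463 on GRCm38.

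Ccl3, a chemokine that attracts monocytes and T cells, read 146, 210 and 66.8 TPM in CX3CR1-GFP, 29.3, 28.7 and 15.7 in double-negative, and 24.5, 14.2 and 19.3 in CCR2-RFP. All 3 CX3CR1-GFP libraries were higher than the highest other, though they differed from each other by more than the 2 other populations did. The difference was 2.38 to double-negative (adjusted p = 0.0111) and 2.69 to CCR2-RFP (0.000669).

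Axl, a receptor tyrosine kinase that binds apoptotic cells through Gas6, read 10.7, 20.8 and 8.78 TPM in CX3CR1-GFP, 0.566, 0.670 and 1.31 in double-negative, and 2.62, 2.50 and 2.86 in CCR2-RFP. It is a gene for which the MHC II- majority, not the CCR2-RFP cells, was the lowest. The differences were 2.90 (adjusted p = 0.00098) and 1.89 (0.000958).

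Cd93, a C-type lectin-like receptor of myeloid cells and endothelium, read 61.4, 55.2 and 65.5 TPM, against 16.1, 25.1 and 12.2 in double-negative and 3.97, 0.968 and 1.53 in CCR2-RFP. Its levels formed 3 separate steps, with CX3CR1-GFP highest. It was called against each (1.77, adjusted p = 0.0211, and 4.40, 1.4e-05), and lost its call with the 6 others as 1 group (0.138).

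Of the other 8 of the 12 highest, 6 were called against each population. Creb5, a transcription factor of the CREB family, averaged 15.6 ± 2.51 TPM (SD, n = 3) in CX3CR1-GFP, 3.94 ± 1.12 in double-negative and 2.79 ± 0.325 in CCR2-RFP. Tgfbr1, the type I receptor for TGF-beta, averaged 16.5 ± 6.47, 4.24 ± 1.70 and 2.28 ± 0.766 TPM in the same order. In both genes the other populations lay close together and CX3CR1-GFP apart.

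Lpar6, a receptor for lysophosphatidic acid, averaged 26.5 ± 10.9 TPM in CX3CR1-GFP, 7.80 ± 1.87 in double-negative and 2.71 ± 1.01 in CCR2-RFP. Cd300c2, of the CD300 receptor family, averaged 18.6 ± 2.55, 6.16 ± 1.35 and 3.45 ± 0.69 TPM. Clec12a, an inhibitory C-type lectin that recognises dead cells, averaged 33.5 ± 11.6, 11.8 ± 2.91 and 9.46 ± 1.58 TPM. The remaining 2, Itga6, a chain of laminin-binding integrins, and Dst, a cytoskeletal linker, were not called against double-negative (adjusted p = 0.165 and 0.199). Both were highest in the sort 2A library within CX3CR1-GFP (15.6 and 28.2 TPM) and within CCR2-RFP (4.69 and 8.53). In double-negative, sort 2A had the highest Itga6 (4.59) and the lowest Dst (4.42). Skeletal muscle sums, given below, also peaked in sort 2A, and a link was not tested. Of the 12, 7 were called in every alternative setting and 5 lost the call in some.

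On the low side, Retnla encodes RELM-alpha, a protein secreted by alternatively activated macrophages. It read 200.5, 167 and 269 TPM in CX3CR1-GFP, 3740, 4723 and 4432 in double-negative, and 12395, 10766 and 16041 in CCR2-RFP. The highest CX3CR1-GFP library was far below the lowest other, and CCR2-RFP stood above double-negative. The log2 difference was -4.35 to double-negative (adjusted p = 1.25e-05) and -5.94 to CCR2-RFP (5.56e-07). Retnla was called in all 23 settings.

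Ms4a8a, of the membrane-spanning MS4A family, read 0.425, 1.13 and 2.97 TPM in CX3CR1-GFP, 13.5, 19.2 and 19.9 in double-negative, and 26.1, 24.7 and 26.4 in CCR2-RFP. The 3 low libraries differed several fold among themselves, near the filter of 1 TPM. The differences were -3.00 (adjusted p = 0.00118) and -3.55 (3.32e-05).

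Gda, guanine deaminase of purine breakdown, read 14.4, 11.9 and 15.5 TPM in CX3CR1-GFP, 53.8, 49.8 and 52.6 in double-negative, and 155, 161 and 165 in CCR2-RFP. Replicates were close, in 3 steps without overlap. The differences were -1.84 (adjusted p = 0.000327) and -3.44 (6.69e-07).

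Cd209d, a lectin related to DC-SIGN, read 3.73, 6.43 and 5.23 TPM in CX3CR1-GFP, 47.9, 106 and 45.6 in double-negative, and 29.7, 30.9 and 23.7 in CCR2-RFP. The related Cd209a read 5.30, 7.51 and 6.95 TPM, 23.6, 58.5 and 19.6, and 79.2, 121 and 79.4. Both lectins were lowest in CX3CR1-GFP, while the other populations ranked oppositely for the 2 genes. Both were called against each population (Cd209d adjusted p = 0.000597 and 0.000431, Cd209a 0.0134 and 5.25e-05).

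Serp1, which stabilises proteins at the endoplasmic reticulum, averaged 15.6 ± 2.36 TPM in CX3CR1-GFP, 52.5 ± 6.54 in double-negative and 89.6 ± 8.17 in CCR2-RFP. Snx10, a sorting nexin of endosomes, averaged 3.67 ± 0.912, 13.1 ± 2.96 and 25.3 ± 6.62 TPM. Gfra2, a receptor for the neurotrophic factor neurturin, read 1.25 to 6.62, 18.7 to 23.2 and 20.0 to 25.7 TPM. All 3 were called lower than each other population.

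Gstp1, a glutathione transferase, averaged 3.91 ± 1.64, 15.2 ± 0.904 and 14.2 ± 1.81 TPM, and Ifitm6 of the interferon-induced transmembrane family 7.46 ± 3.66, 22.8 ± 4.87 and 113 ± 22.5 TPM. Lyz1, a lysozyme, read 7.56, 3.24 and 10.3 TPM in CX3CR1-GFP, 18.1 to 55.0 in double-negative and 916 to 1179 in CCR2-RFP, and was not called against double-negative (adjusted p = 0.0524). Gstp1 and Lyz1 have near-identical neighbours, Gstp2 and Lyz2, so the division of reads between copies is uncertain. Of the 12 lowest, 10 were called in every alternative setting.

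**Figure D2:**
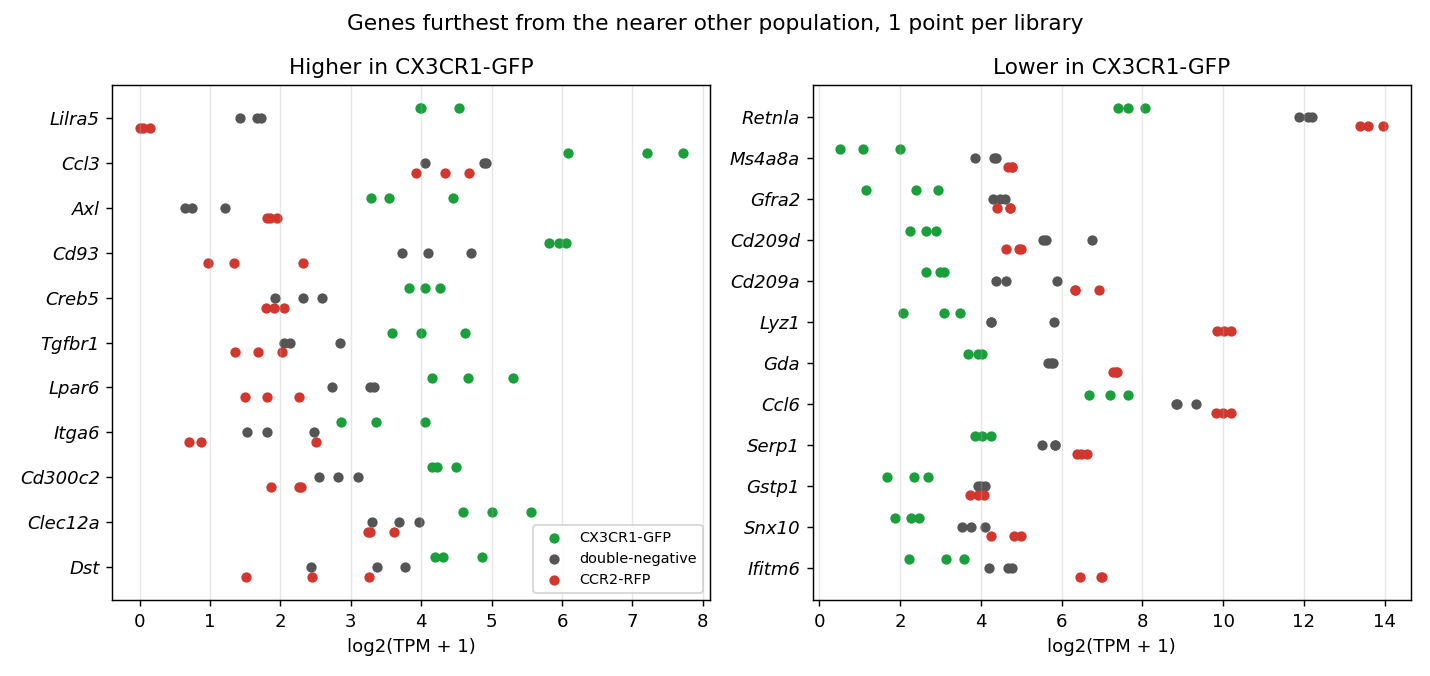
The x axis is log2(TPM + 1) and each point is 1 library, for 11 of the 12 genes furthest above and the 12 furthest below the nearer population. The 3 CX3CR1-GFP points (green) never overlap the 6 others; Dst and Itga6 nearly touch them.

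The gene lists described next had been assembled with earlier results of these data known, and a list's share of calls is set beside the 3.72% higher and 9.23% lower of all genes. These calls are against the mean of both other populations, so a difference to 1 of them can be enough. Without overlap, the shares of all genes were 2.70% above and 5.64% below. The CX3CR1 macrophage and microglia-associated genes had 12 of 18 tested members called higher and 2 lower, with a median difference of 1.05 against -0.07 for all genes. Cx3cr1, the gate gene, and Olfml3 passed the filter through CX3CR1-GFP alone, and 10 of the 16 others were called higher. Only 5 of the 18 lay above all 6 others, among them Cx3cr1, Gpr34, Olfml3 and Tgfbr1. Called higher than each population were 4, Cx3cr1 and Olfml3 among them. The 21 genes listed summed to 1079 to 1337 TPM in CX3CR1-GFP, 1307 to 1350 in double-negative and 757 to 890 in CCR2-RFP. Without sort 2A, 7 of 16 were called higher and 1 lower. Where a list below has counts in parentheses after "1 left out", they are the range when each of the 9 libraries is left out in turn.

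Gpr34, a receptor for lysophosphatidylserine, read 70.5, 73.1 and 69.5 TPM in CX3CR1-GFP, 40.5, 49.6 and 52.2 in double-negative and 3.45 to 8.45 in CCR2-RFP. The library values did not overlap, but the difference to double-negative was 0.58 and was not called (adjusted p = 0.289). Olfml3, a secreted olfactomedin-like protein, read 5.95, 2.89 and 2.22 TPM, at most 0.266 in double-negative, and was listed at 0 in CCR2-RFP. Since only the CX3CR1-GFP libraries reached 1 TPM, it could be tested only through the group where it is high, and its values are given without the test.

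P2ry12, the ADP receptor of microglia and platelets, was not among the genes above. It read 28.8, 28.4 and 30.0 TPM in CX3CR1-GFP, 34.6, 32.8 and 31.3 in double-negative and 2.26 to 4.81 in CCR2-RFP. It was called against CCR2-RFP (2.70, adjusted p = 1.38e-05) and not against double-negative (-0.17, 0.757). The same held for P2ry6, a UDP receptor (0.04 to double-negative, 0.946), and P2rx7, the ATP-gated channel of inflammasome activation (-0.18, 0.746). No P2X or P2Y gene, of 2 and 6 tested, was without overlap.

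Among 12 tested nerve-associated macrophage genes, 5 were called higher and 1 lower (1 left out: 3 to 6 and 1, the 3 without CX3CR1-GFP of sort 1 or 2A), and 3 lay above the others, Cx3cr1, Axl and Aif1. Without the gate gene Cx3cr1 the count called higher was 4 of 11. Of the 12, 2 were called higher than each population, Cx3cr1 and Axl. The 14 genes listed summed to 377 to 434 TPM in CX3CR1-GFP, 765 to 828 in double-negative and 169 to 187 in CCR2-RFP. Aif1, which encodes the calcium-binding IBA1, read 35.0, 37.0 and 24.1 TPM in CX3CR1-GFP, 16.9 to 19.1 in double-negative and 4.62 to 10.7 in CCR2-RFP. Its difference to double-negative was 0.75 (adjusted p = 0.218).

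Resident macrophage genes were split, 10 of 31 called higher and 6 lower, none above all 6 others (1 left out: 6 to 13 and 5 to 6, with 6 higher without CX3CR1-GFP of sort 1 or 2A). Cd209a and Cd209d were the 2 below all 6 others. None of the 31 was called higher than each population and 3 were called lower than each. They summed to 3510 to 3819 TPM in CX3CR1-GFP, 5858 to 6051 in double-negative and 1519 to 2067 in CCR2-RFP. Of 14 genes of large peritoneal cavity macrophages none was called higher and 4 lower (1 to 3 in the other scalings; 1 left out: 1 to 4, with 1 without CX3CR1-GFP of sort 1 or 2A, and the median from -0.88 to -0.30 without 2A); coagulation factor F5, at 0.685, 0.204 and 0.972 TPM against 1.13 to 3.85 in the others, lay below. Of 16 monocyte genes, none was called higher and 8 lower, with Lyz1 the 1 without overlap. None of the 8 was called lower than each population, nor was any large peritoneal cavity macrophage gene. The 24 monocyte genes listed summed to 1208 to 1402 TPM in CX3CR1-GFP, 1401 to 1830 in double-negative and 5020 to 6285 in CCR2-RFP. Of 19 conventional dendritic cell genes, 3 were called higher and 9 lower (1 left out: 2 to 3 and 6 to 7). Without sort 2A these counts were 2 and 3. Cd83 lay above the others and Cd209a, also on this list, below. Of the 19, 1 was called higher than each population, Cd83, and 1 lower than each, Cd209a.

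Chemokines divided by gene. Of 18 tested, 5 were called higher and 3 lower (1 left out: 4 to 5 and 2). Ccl3, Ccl12 and Cxcl16 lay above while Ccl6 and Ccl9 lay below the others. Of the 18, 1 was called higher than each population, Ccl3, and 2 lower than each. Ccl12, a ligand of CCR2, read 47.4, 123 and 37.2 TPM in CX3CR1-GFP, 26.7 to 33.3 in double-negative and 0.274 to 4.69 in CCR2-RFP, and was not called against double-negative (adjusted p = 0.421).

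Ccl6, a CC chemokine of rodents, read 146, 101 and 199.6 TPM in CX3CR1-GFP, 459, 467 and 640 in double-negative, and 1031, 904 and 1169 in CCR2-RFP. Ccl9, a related chemokine and CCR1 ligand, read 111, 86.1 and 113 TPM, 172, 202 and 249, and 373, 386 and 411. Both rose in steps from CX3CR1-GFP to CCR2-RFP, without overlap, and both were called lower than each population (Ccl6 0.00323 and 2.33e-05, Ccl9 0.0111 and 2.65e-05). The genes are neighbours on GRCm38: Ccl9 at chr11:83572919-83578636 and Ccl6 at chr11:83587882-83593087, with Ccl3 at chr11:83647844-83649355. Ccl4, nearest to Ccl3 at chr11:83662584-83664683, overlapped: it read 38.4, 116 and 22.7 TPM in CX3CR1-GFP, 2.96 to 6.27 in double-negative and 19.0 to 26.9 in CCR2-RFP.

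Of 16 chemoattractant receptors, 4 were called higher and 3 lower (1 left out: 2 to 4 and 1 to 3, with 2 higher without CX3CR1-GFP of sort 2A and 1 lower without CCR2-RFP of sort 1 or 2B). The 4 include the gate gene Cx3cr1, and without it 3 of 15 were called higher. Besides Cx3cr1, Gpr183, a receptor for oxysterols, lay above the others at 42.3, 37.3 and 27.3 TPM, with 14.3 to 25.1 in double-negative and 3.59 to 6.82 in CCR2-RFP. It was not called against double-negative (adjusted p = 0.206). C5ar2, a receptor for complement C5a, was also above but not called against the mean of both (0.227).

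Of 27 phagocytosis and scavenger receptor genes, 9 were called higher and 4 lower (1 or 2 lower in the other scalings; 1 left out: 7 to 10 and 1 to 4, with 1 and 2 lower without CX3CR1-GFP of sorts 1 and 2A; without sort 2A, 5 and 2). Of the 27, 2 were called higher than each population, Axl and Itgb5, and none lower than each. The 32 genes listed summed to 1625 to 1731 TPM in CX3CR1-GFP, 2321 to 2431 in double-negative and 1027 to 1219 in CCR2-RFP. Itgb5, a chain of the vitronectin-binding integrin that takes up apoptotic cells, read 7.90, 11.9 and 7.87 TPM in CX3CR1-GFP, 1.85 to 2.07 in double-negative and 0.0932 to 0.404 in CCR2-RFP. It was called higher than each (1.78, adjusted p = 0.00218, and 3.03, 8.32e-06). The Fc receptor gamma chain Fcer1g lay below, at 323 to 398 TPM against 435 to 588, and was not called against double-negative (0.0709).

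Among 21 integrin and adhesion genes, 5 were called higher and 7 lower (1 left out: 3 to 5 and 5 to 7, with 3 higher without CX3CR1-GFP of sort 1 or 2A). Of the 5, 1 passed the filter through CX3CR1-GFP alone, and without it 4 of 20 were called higher. Itgb2, the common chain of the leukocyte integrins, read 12.5, 12.7 and 14.9 TPM in CX3CR1-GFP, 19.5 to 22.8 in double-negative and 44.0 to 50.5 in CCR2-RFP, and was called lower than each (adjusted p = 0.0428 and 2.13e-05). Its partner Itgam, the CD11b of the gate, read 11.8, 16.1 and 16.1 TPM, against 17.9 to 20.4 and 41.1 to 50.6. Itgam was called lower than CCR2-RFP (6.37e-05) and not than double-negative (0.305). The integrin chains Itgb5 and Itgb2 therefore lay on opposite sides.

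Of 22 complement genes 5 were called higher and 5 lower (1 left out: 2 to 6 and 3 to 5, with 2 higher without CX3CR1-GFP of sort 2A and 3 lower without that of sort 1). None of the 22 was called higher than each population. The 23 genes listed summed to 1050 to 1133 TPM in CX3CR1-GFP, 1695 to 1901 in double-negative and 508 to 554 in CCR2-RFP. Cfp, properdin, the stabiliser of the alternative pathway convertase, read 15.0, 23.3 and 23.8 TPM in CX3CR1-GFP, 54.1, 61.5 and 55.0 in double-negative, and 69.7, 100.3 and 85.3 in CCR2-RFP. It was called lower than each (adjusted p = 0.00391 and 5.68e-05).

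Of 15 cytokine genes 1 was called higher (none without CX3CR1-GFP of sort 1 or 2A) and 2 lower. Tnf read 10.2, 15.2 and 7.19 TPM in CX3CR1-GFP, 3.11 to 4.81 in double-negative and 6.11 to 6.52 in CCR2-RFP, and was called against double-negative (adjusted p = 0.0243) but not against CCR2-RFP (0.0856). Il6 read 2.78, 0.0325 and 1.30 TPM, 3.45 to 6.20 in double-negative and 68.2 to 109 in CCR2-RFP, and was called against CCR2-RFP only (1.54e-05; double-negative 0.095). Both inflammatory cytokines were without overlap, Tnf above and Il6 below.

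Of 14 costimulatory and checkpoint genes, 2 were called higher, Cd83 and Cd276, and 1 lower, Cd200r1. Cd276 passed the filter through CX3CR1-GFP alone (1.37, 2.54 and 1.02 TPM, at most 0.258 elsewhere), which leaves Cd83 as the 1 called higher of 13. Cd83, which stabilises MHC II at the surface, read 174, 229 and 214 TPM in CX3CR1-GFP, 93.5 to 116 in double-negative and 84.9 to 89.4 in CCR2-RFP. The difference was close to 2-fold to each population, 0.99 (adjusted p = 0.00521) and 1.22 (0.000162). Cd200r1, an inhibitory receptor of myeloid cells, read 3.46 to 4.97 TPM, 5.85 to 9.28 and 21.7 to 26.2.

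Of 13 growth factor genes 4 were called higher and 3 lower (1 left out: 3 to 4 and 1 to 3, with 1 lower without CCR2-RFP of sort 2A or 2B; without sort 2A, 1 and 1). Pdgfb, a platelet-derived growth factor chain, read 3.02, 4.88 and 4.19 TPM in CX3CR1-GFP, 0.830 to 1.06 in double-negative and 1.79 to 2.09 in CCR2-RFP. Pdgfa, its sister chain, read 5.41, 3.67 and 4.32 TPM, 1.48 to 2.06 and 1.07 to 1.84. Both chains were called higher than each population (Pdgfb adjusted p = 0.00562 and 0.0196, Pdgfa 0.0352 and 0.00224), and both lost the call to the mean of both populations without sort 1 and without sort 2B. Hgf, hepatocyte growth factor, read 2.13 to 3.27 TPM, 1.06 to 1.27 and 0.242 to 0.747, and was not called against double-negative (0.0965).

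Of 34 transcription factor genes, 8 were called higher and 5 lower (3 lower in each of the other scalings and with the replicate block; 1 left out: 6 to 10 and 2 to 4; without sort 2A, 4 and 1). Runx1, a regulator of blood cell development, read 25.3, 27.7 and 29.8 TPM in CX3CR1-GFP, 16.7 to 18.6 in double-negative and 14.8 to 16.1 in CCR2-RFP, called higher than each (adjusted p = 0.0428 and 0.00179). Mef2c, a microglial and muscle factor, read 59.4, 67.6 and 64.2 TPM, 47.5 to 52.1 and 16.0 to 21.7. Bhlhe41, known from self-renewing alveolar macrophages, read 10.2, 7.25 and 5.25 TPM, 0.507 to 4.95 and 0 to 0.192. Neither was called against double-negative (0.26 and 0.0965). Bhlhe41, 1 of the 8 called higher, needed the CX3CR1-GFP libraries to pass the filter, so it could be tested only because it is high there. Of the 34, only Runx1 was called higher than each population.

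Of 15 genes of TGF-beta signalling, which maintains microglial identity, 3 were called higher and none lower (1 lower without double-negative of sort 2B). Tgfbr1 is given above. Skil, a feedback inhibitor of SMAD proteins, read 53.0, 69.6 and 44.7 TPM in CX3CR1-GFP, 10.6 to 16.5 in double-negative and 29.3, 44.4 and 26.5 in CCR2-RFP, with its lowest CX3CR1-GFP value just above the highest other. It was called against double-negative (2.06, adjusted p = 0.00218) and not against CCR2-RFP (0.0522).

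Of 25 interferon-stimulated genes, none was called higher and 5 lower (3 lower and 1 higher after rescaling without Siglece and the other abundant classes, 5 and 1 after quantile normalization; 3 lower without CX3CR1-GFP of sort 1 or 2A, and 1 higher without CCR2-RFP of sort 1). Ifitm3, which blocks virus entry at endosomes, read 107, 111 and 139 TPM in CX3CR1-GFP, 255, 280.3 and 281 in double-negative, and 294, 296 and 319 in CCR2-RFP. The 2 other populations were close and CX3CR1-GFP well below (-1.19, adjusted p = 0.00156, and -1.35, 5.68e-05).

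Of 17 MHC class I presentation genes none was called higher and 6 lower (2 or 3 in the other scalings; 1 left out: 2 to 5), and H2-D1, H2-T23 and Psmb9 lay below. H2-D1 read 78.0, 85.6 and 89.1 TPM in CX3CR1-GFP, 112 to 118 in double-negative and 139 to 143 in CCR2-RFP. H2-D1 was not called against double-negative (adjusted p = 0.0745), nor were H2-T23 (0.0644) and Psmb9 (0.285). None of the 17 was called lower than each population. Class I genes share much sequence, so the reads of H2-D1 may be divided uncertainly.

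Of 26 lysosomal genes 4 were called higher and 3 lower, while 6 lay below all others and 1 above. Ctsd, cathepsin D, read 47.8, 43.2 and 54.2 TPM in CX3CR1-GFP, 85.6 to 105 in double-negative and 64.8 to 110 in CCR2-RFP, called lower than each (adjusted p = 0.0272 and 0.0174). Psap, the precursor of the saposins, read 182, 193 and 189 TPM, 199 to 226 and 414 to 449, and was called against CCR2-RFP only. Both lay below the others, Psap only narrowly below double-negative.

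In the other lists, members without overlap are set beside the 2.70% above and 5.64% below of all genes. Above lay 2 of 20 immediate-early genes. Below lay 1 each of 16 cell cycle, 17 iron and haem, 13 lipid-associated macrophage and 8 adenosine receptor and ectoenzyme genes. Of 20 immediate-early genes, induced by handling as well as by signals, 3 were called higher (5, 7 and 8 in the other scalings) and none lower. Egr1 read 269, 239 and 264 TPM against 162 to 237 in double-negative and 80.3 to 137 in CCR2-RFP, and Fos, also above, was not called (adjusted p = 0.0726). Of 16 cell cycle genes 1 was called lower (none in 2 of the other scalings and with 8 of the 9 libraries left out in turn), of 17 iron and haem genes 2 were higher (4 after rescaling, 4 with the replicate block) and 1 lower (2 without CX3CR1-GFP of sort 1 or CCR2-RFP of sort 2A), of 13 lipid-associated macrophage genes 3 and 4, and of 8 adenosine receptor and ectoenzyme genes none and 1. That gene, Adora2b, an adenosine receptor, read 0.0947, 0.272 and 0.752 TPM, 1.28 to 1.95 in double-negative and 6.83 to 11.4 in CCR2-RFP.

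**Figure D3:**
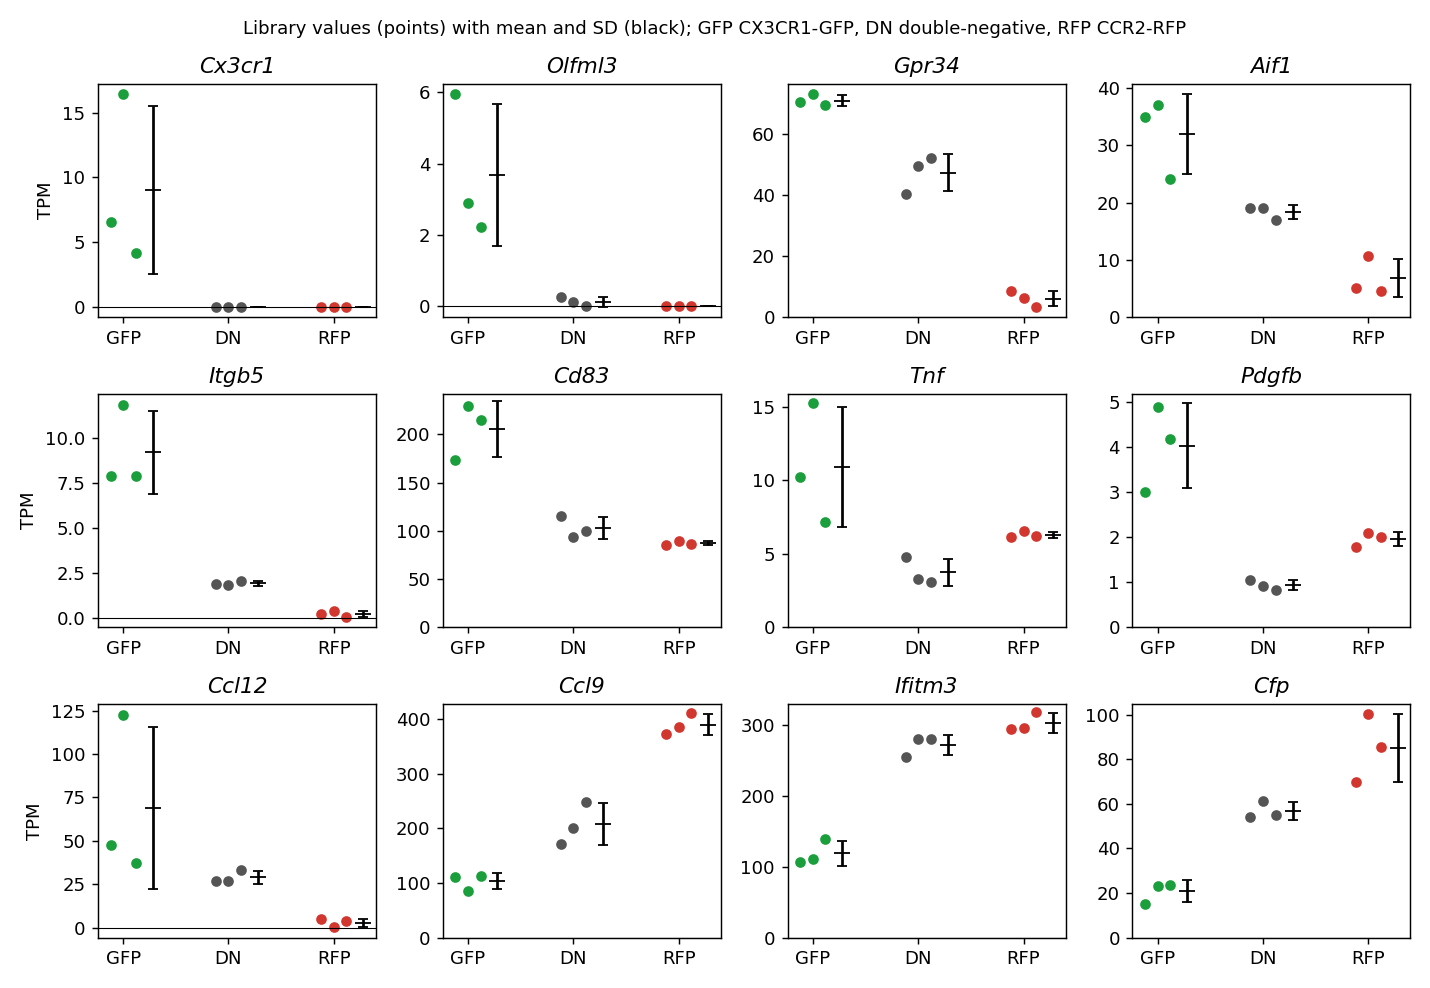
The y axis is TPM, points are the 3 libraries of CX3CR1-GFP (GFP), double-negative (DN) and CCR2-RFP (RFP), and black marks are the mean and SD. In Itgb5, Cd83, Pdgfb and Olfml3 the GFP points lie apart from both others, whereas Gpr34, Aif1 and Ccl12 also stand high in DN.

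**Figure D4:**
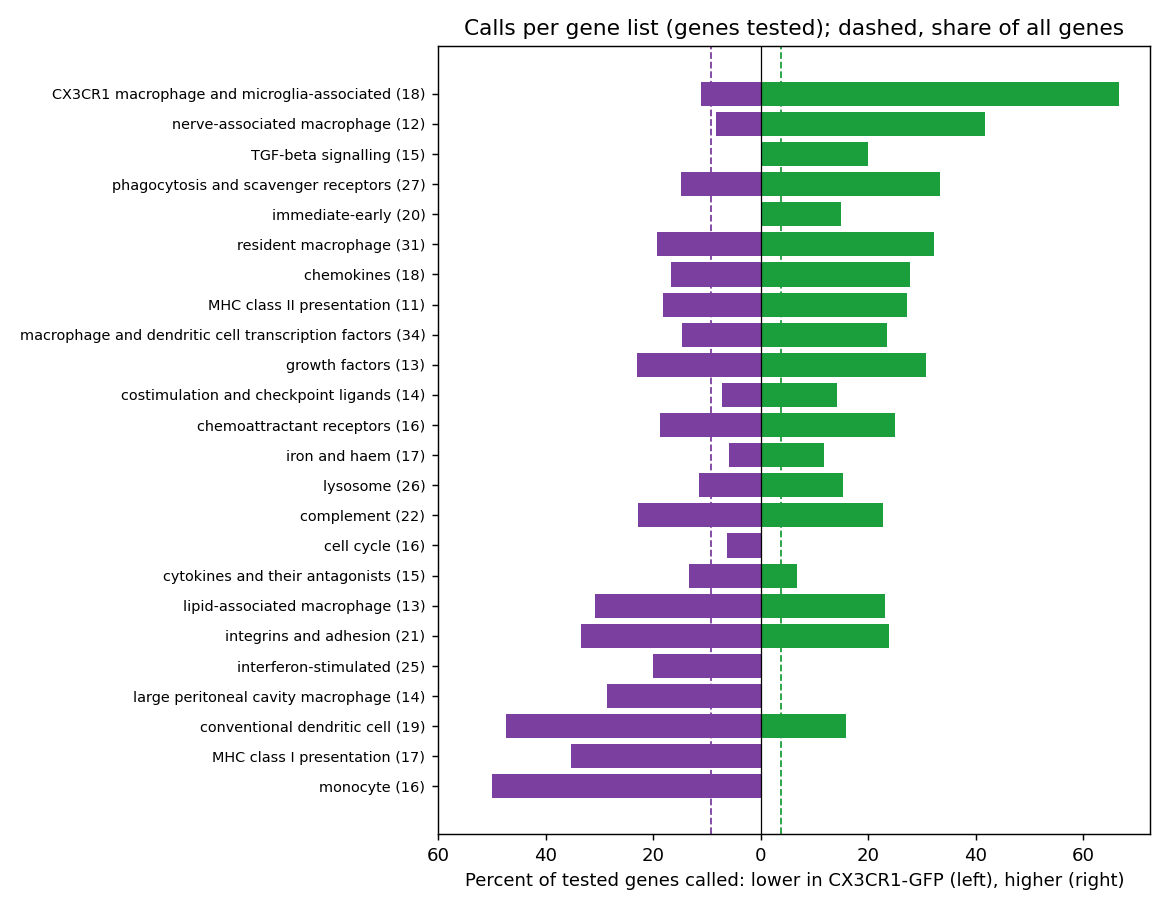
Bars give the percentage of tested genes of each list called higher (right) or lower (left) in CX3CR1-GFP against the mean of both others, with dashed lines at 3.72% and 9.23% for all genes. The CX3CR1 macrophage and microglia-associated list (12 of 18 higher, 10 of 16 without Cx3cr1 and Olfml3) and the monocyte list (8 of 16 lower) are at the ends. Against each population, 4 of the 18 were called higher and none of the 16 monocyte genes lower. Bars include genes that passed the filter through CX3CR1-GFP alone. Lists with under 10 tested genes, markers of other cell types and ribosomal proteins are not drawn.

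Genes above and below differed in transcript length, which the rule did not use. The longest GENCODE M21 transcript had a median of 4172 bases for the genes above, 2669 for those below and 3366 for all kept genes with a length. The 9601 genes with a length were divided into 5 near-equal groups. From the shortest to the longest, the share above rose from 1.61 to 4.43% and the share below fell from 8.59 to 2.86%. Spearman's rho between length and the difference to the mean of both was 0.19 over these genes, which share 9 libraries and are not independent replicates. Median GC content was 47.1%, 49.4% and 48.9%. Of 92 cytosolic ribosomal protein genes, which are short, none was called higher and 61 lower with a median of -0.55 (39 after median-of-ratios scaling, 20 after quantile normalization, 40 without CX3CR1-GFP of sort 2B), and 11 lay below all others. Ribosomal protein genes summed to 8012 to 8520 TPM in CX3CR1-GFP, 8266 to 10849 in double-negative and 15856 to 17719 in CCR2-RFP. The sums of CX3CR1-GFP and double-negative thus overlapped, and CCR2-RFP stood well above both. The part of length in the other differences was not tested.

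**Figure D5:**
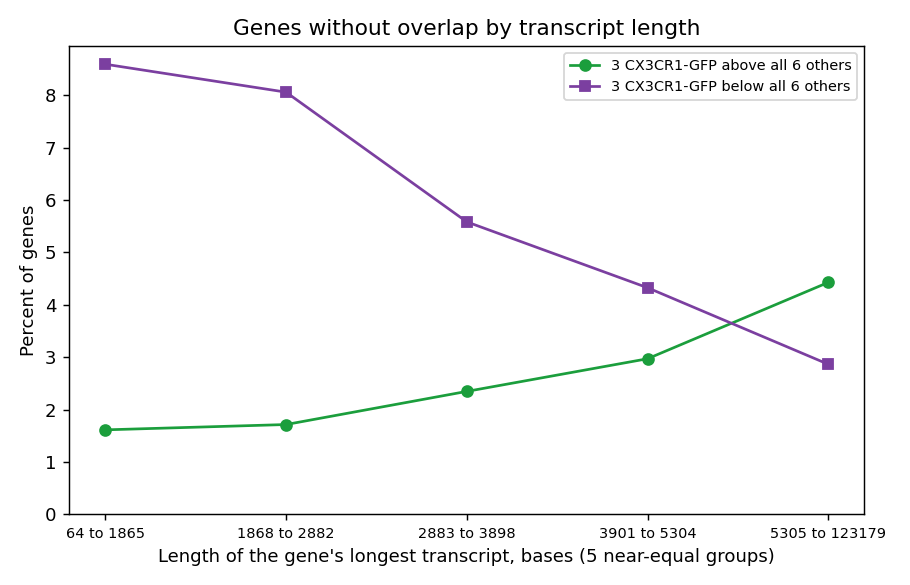
The x axis gives 5 near-equal groups of genes by longest transcript in bases and the y axis the percentage of each group lying above (green) or below (purple) the 6 others. Above rises from 1.61 to 4.43% and below falls from 8.59 to 2.86%.

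Markers of other cells were summed per library. Of skeletal muscle genes, all 16 were tested and none called (6 called higher without sort 2A, 3 without CCR2-RFP of sort 2A). They gave 419 to 2879 TPM in CX3CR1-GFP, 552 to 599 in double-negative and 106 to 1738 in CCR2-RFP. The sort 2A library was the highest within each population. Fibroblast genes gave 82.7 to 182, 28.8 to 180.2 and 49.6 to 96.4 TPM, with none of 12 called (2 called higher with the replicate block, 1 without CX3CR1-GFP of sort 1 or double-negative of sort 2B). Of T and NK cell genes, summing to 5.04 to 17.6 TPM in CX3CR1-GFP, 4.44 to 6.08 and 43.0 to 55.6, 1 of 6 was called lower. Of the B cell markers 2 passed the filter, Cd79b through CX3CR1-GFP alone at 3.54, 2.60 and 1.44 TPM and at most 0.597 elsewhere, while the whole list gave 44.9 to 57.9, 48.6 to 71.2 and 14.4 to 15.5 TPM and 5 of its 12 genes were listed at 0 in CX3CR1-GFP. The part of these sums in the results was not tested.

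The edge of the rule was thin for some genes. Just inside, Egr1 and Skil lay above by 239 against 237 TPM and 44.7 against 44.4, and Rac1 lay below by 88.86 against 88.87. Just outside, Fam105a read 14.93 TPM in its lowest CX3CR1-GFP library against 14.99 in the highest other.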

How the data were processed

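RNA from 3 sorted populations (9 libraries, 1 ng RNA input, paired reads of 75 bases) was measured. The authors deposited TPM per gene symbol; bcl2fastq 2.18, cutadapt 1.8.3, Salmon 0.11.3 and build mm10 come from the submitters' processing notes, with annotation, gene summing and strand not given in the sources used here, so overlapping and antisense genes cannot be separated. Genes with at least 1 TPM in 3 libraries (10136) were fitted on log2(TPM + 1), which understates changes of low genes, with limma 3.58.1 (3 group means, trended variance; R 4.3.3) and Benjamini-Hochberg adjustment; the fit was tested on simulated data. Exact permutation tests used scipy 1.17.1. The populations came from titles and headings. The 24 ranked genes are the 12 each way furthest from the nearer population among called genes without overlap, at 10 TPM or more in the highest population (for genes below, in the lower of the others), leaving out predicted, ribosomal, mitochondrial and small RNA genes. For each list up to 4 called members without overlap were named, or 2 by level; others named were chosen after their values were seen. The members and lists were chosen with earlier results of these data known. Some genes are not reported here. Other scalings, filters, pseudocounts, groupings and left-out libraries were tried. GENCODE M21 matched 85.9% of listed symbols, and RefSeq windows 75.1% of genes kept. The series design gives 3 mice and 3 replicates per group, so sort labels were read as animals, though whether 2A and 2B are separate animals is not stated; deviations of same-sort libraries correlated at 0.0315 to 0.205.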

Additional observations from a re-analysis of the deposited data

How the results depend on the processing

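Of the reported genes' values under 23 alternatives, 1408 kept their direction and side of the threshold, 214 lost and 6 gained a call, and none changed sign. Most of these genes were chosen because the CX3CR1-GFP values did not overlap the others. For those, leaving out libraries or changing pseudocount, filter, grouping, block or variance trend could not change the sign. Only the scalings could, so the lack of reversals says little. Counts moved most when variance or libraries changed. In what follows, calls against the mean of both populations are higher then lower, genes without overlap above then below, and calls against each population higher then lower. As deposited these were 377 and 936, 274 and 572, and 52 and 60. With the 6 others as 1 group, calls were 30 and 27. Requiring a 2-fold difference gave 173 and 308, and 33 lower than each. Rescaling without mitochondrial, ribosomal, Rn18s and Siglece values gave 615 and 468 calls, 543 and 287 without overlap, and 37 lower than each. Quantile normalization gave 570 lower. Without a filter, 548 were lower, 634 above, and 28 and 31 called against each. A filter of 5 TPM left 127 above and 32 higher than each, and a pseudocount of 0.1 left 34 higher than each. Leaving out 1 library gave 265 to 339 higher, 580 to 725 lower, 303 to 572 above, 611 to 1034 below, and 21 to 50 higher and 26 to 60 lower than each. By library, without sort 2B of CX3CR1-GFP 572 lay above and 1034 below, and without that of CCR2-RFP 580 were lower; fewer values make separation easier by construction. Leaving out sort 1 gave 68 and 112 calls, 671 and 1127 without overlap, and 1 and 6 against each. Without sort 2A these were 190 and 416, 602 and 1328, and 10 and 31, and without sort 2B 101 and 216, 758 and 1288, and 4 and 12; these fits have 2 libraries per population. The replicate block by sort gave 386 and 868 calls, and 46 and 62 against each. Overlap has no separate value under the pseudocount, block, grouping, trend and fold settings, nor have calls against each population with the 6 others as 1 group. Depth is unknown, and the causes of the other changes were not tested.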
